A study of Mus musculus with 32 samples.

Results

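The PEA3 factors *Etv1*, *Etv4* and *Etv5* were followed through RNA-seq of mouse embryonic stem cells (ESCs) in 11 conditions. The members are the rows of the deposited gene count table that carry these symbols, 3 of 51826 genes, and each of them is present. *Etv1* (ENSMUSG00000004151.17) lies on chromosome 12 from 38779380 to 38870484 on the plus strand of GRCm38. *Etv4* (ENSMUSG00000017724.14) lies on chromosome 11 from 101769742 to 101785371 on the minus strand, and *Etv5* (ENSMUSG00000013089.15) on chromosome 16 from 22381309 to 22439719, also on the minus strand. Their counted exons sum to 13296, 3104 and 4103 bases. No other annotated gene overlaps any of them, and no pair shares a 25-base stretch of transcript, so that reads of this length or more without mismatches would not be split between them.

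PEA3 proteins are transcription factors of the ETS family, which bind DNA motifs with a GGA core. They act downstream of fibroblast growth factor receptors: the MEK and ERK kinases phosphorylate them, and in many tissues their genes are themselves switched on by ERK signaling, partly by removal of the repressor capicua (CIC). Etv4 and Etv5 are often expressed together where FGF acts, as in limb buds, lung and kidney, while Etv1 is best known from neurons, muscle spindles and the heart. In ESCs, a MEK inhibitor holds ERK signaling down and helps to keep the naive state, and its removal starts the passage to the formative state.

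The cells were RGd2, a Rex1-GFPd2 reporter ESC line, and knockout lines made in it with CRISPR-Cas9, so all groups carry the reporter. RGd2 was sequenced in 2i (the MEK inhibitor PD0325901 and the GSK3 inhibitor CHIR99021 in N2B27 medium), after 5 passages in 2i (2ip5), after 2 passages in CHIR99021 alone (CHp2), and 16 h (N16h) or 72 h (N72h) after transfer to N2B27 without inhibitors. *Etv5*-KO and *Rbpj*-KO lines were sequenced in 2i and at N16h. Lines lacking *Etv5* and *Rbpj* (ER-dKO) were in CHIR99021 at passage 5 (CHp5), and lines lacking *Etv5*, *Tcf3* (*Tcf7l1*) and *Rbpj* (ETR-tKO) in N2B27 without inhibitors at passage 5 (Np5). Each condition has 3 libraries, except *Etv5*-KO N16h with 2. Within a condition, each knockout library is a different clonal line, the lines at N16h are among those in 2i, and 2 of the 3 ETR-tKO lines carry Tc1 in their names, and in each RGd2 condition 2 libraries are from the parental line and 1 from a clonal line derived from it. Per the study's methods, the 2i and N16h cells came from cultures in CHIR99021 and LIF that were moved to 2i shortly before, whereas 2ip5 cells had stayed in 2i. The labels do not say that the libraries of the parental line came from separate cultures, so p-values measure the spread between these samples.

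Gene counts per library ranged from 5986857 (RGd2 2i replicate 33) to 71439411 (median 29940141). Normalized counts below are raw counts divided by size factors from the ERCC spike-ins. FPKM here is counts scaled by exon length and by the gene counts of the library, and only FPKM is compared between genes. TMM, used as an alternative, scales to the bulk of the genes instead. With the spike-ins, the median log2 fold change of all genes was not 0 in each comparison. It was -0.23 for N16h against 2i and -0.37 for 2ip5 against 2i in RGd2, -0.23 for *Etv5*-KO against RGd2 in 2i and 0.24 at N16h, and between -0.15 and 0.27 elsewhere, apart from 0.47 for the difference of responses between *Etv5*-KO and RGd2. The pluripotency markers *Pou5f1*, *Sox2*, *Nanog*, *Zfp42* and *Utf1* were each above a mean of 1 FPKM in every condition. Of other lineages, the summed level of 4 neural markers was 44.2 to 50.3 FPKM at N72h and 3.75 to 4.33 in 2ip5, at N72h nearly all from *Nes* and with *Pax3* at 0, and that of 4 mesoderm and primitive streak markers was 69.8 to 73.5 in CHp2 and 8.41 to 9.44 in 2ip5, in CHp2 nearly all from *T*. Summed levels over all libraries were 0.240 to 9.49 FPKM for 5 primitive endoderm markers, 1.16 to 32.2 for 5 trophoblast markers and 0.107 to 6.46 for 4 fibroblast markers. *Tcf7l1* was at 29.1, 120.4 and 107 in ETR-tKO and 495, 592 and 463 in RGd2 2ip5. *Rbpj* was at 976, 1066 and 1249 in *Rbpj*-KO 2i and 5097, 4328 and 3981 in RGd2 2i, while in ETR-tKO it was at 1559, 2281 and 2348, a smaller gap to the 2830.2, 3385 and 2853 of RGd2 2ip5. In ER-dKO it was at 1138, 1307 and 3489, against 4338, 3814 and 3882 in RGd2 CHp2. The library labelled ER-dKO replicate 12 thus does not show the low *Rbpj* of the others, and ER-dKO results are given with and without it.

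*Etv5* was the abundant family member in RGd2. In 2i its level was 135 ± 18.7 FPKM, against 1.54 ± 0.284 FPKM for *Etv1* and 1.31 ± 0.125 FPKM for *Etv4* (SD, n = 3). *Etv5* made up 97.9% ± 0.0572 of the summed FPKM of the 3 genes in 2i, 99.2% ± 0.0895 in 2ip5, 76.5% ± 3.10 at N16h, 87.8% ± 0.873 at N72h and 87.6% ± 0.823 in CHp2 (SD, n = 3). At N16h, *Etv4* held 20.9% ± 2.99 and *Etv1* 2.59% ± 0.105. In *Etv5*-KO 2i, *Etv5* still held the largest share, 72.7% ± 1.89, with 19.3% ± 1.04 for *Etv4*. In the other *Etv5*-deleted conditions *Etv4* held the largest, with 61.1% ± 5.1 in *Etv5*-KO N16h, 77.2% ± 1.51 in ER-dKO (77.4% without replicate 12) and 76.0% ± 5.58 in ETR-tKO. The share of *Etv1* depends on which length is used, since its merged exons (13296 bases) are longer than its longest coding transcript (6576 bases): with transcript lengths its share in *Etv5*-KO 2i was 14% in place of 8.03%.

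**Figure D1:**
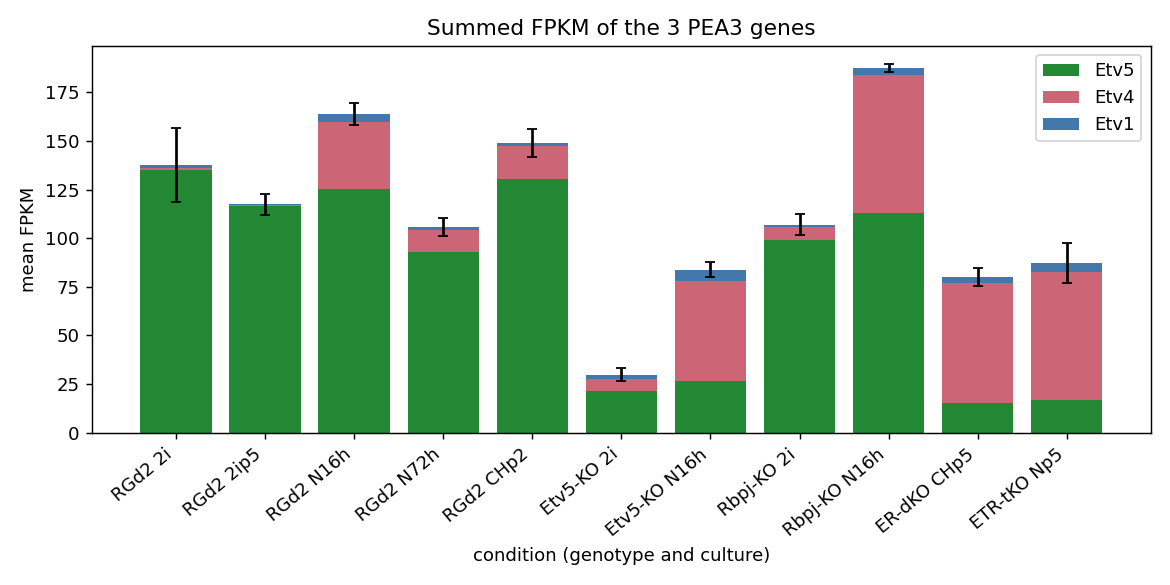
Mean FPKM of *Etv5*, *Etv4* and *Etv1*, stacked, in each of the 11 conditions (x axis); the y axis is in FPKM from 0, and error bars are the SD of the sum over 2 or 3 libraries. *Etv5* fills most of each RGd2 and *Rbpj*-KO bar, and *Etv4* most of the bars of *Etv5*-KO N16h, ER-dKO and ETR-tKO.

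Across the 11 conditions the genes followed different orders of normalized count. *Etv5* was highest in RGd2 2i at 15475 ± 1338 (SD, n = 3), followed by RGd2 CHp2, RGd2 N16h, *Rbpj*-KO N16h, *Rbpj*-KO 2i, RGd2 2ip5 and RGd2 N72h, and then by the 4 conditions in which it was deleted. Among the conditions with an intact gene, CHp2 overlapped with RGd2 N16h, RGd2 N16h with *Rbpj*-KO N16h, and *Rbpj*-KO 2i with 2ip5. *Etv4* was highest in *Rbpj*-KO N16h at 5803 ± 298 (SD, n = 3), then in ETR-tKO, ER-dKO and *Etv5*-KO N16h, followed by RGd2 N16h, RGd2 CHp2, RGd2 N72h, *Rbpj*-KO 2i and *Etv5*-KO 2i, with RGd2 2i and RGd2 2ip5 last at 25.3 ± 5.83 (SD, n = 3). Only ETR-tKO with ER-dKO and *Rbpj*-KO 2i with *Etv5*-KO 2i overlapped among these neighbours. *Etv1* was highest in *Etv5*-KO N16h at 2263 ± 60.2 (SD, n = 2) and lowest in RGd2 2ip5 at 162 ± 25.2 (SD, n = 3). Between these ends, ETR-tKO, RGd2 N16h, ER-dKO and *Rbpj*-KO N16h each overlapped with the next, *Etv5*-KO 2i stood apart, and RGd2 2i, *Rbpj*-KO 2i, RGd2 N72h and RGd2 CHp2 again each overlapped with the next. The mean of *Etv4* thus spanned from 25.3 to 5803, while that of intact *Etv5* spanned only from 9015 to 15475.

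**Figure D2:**
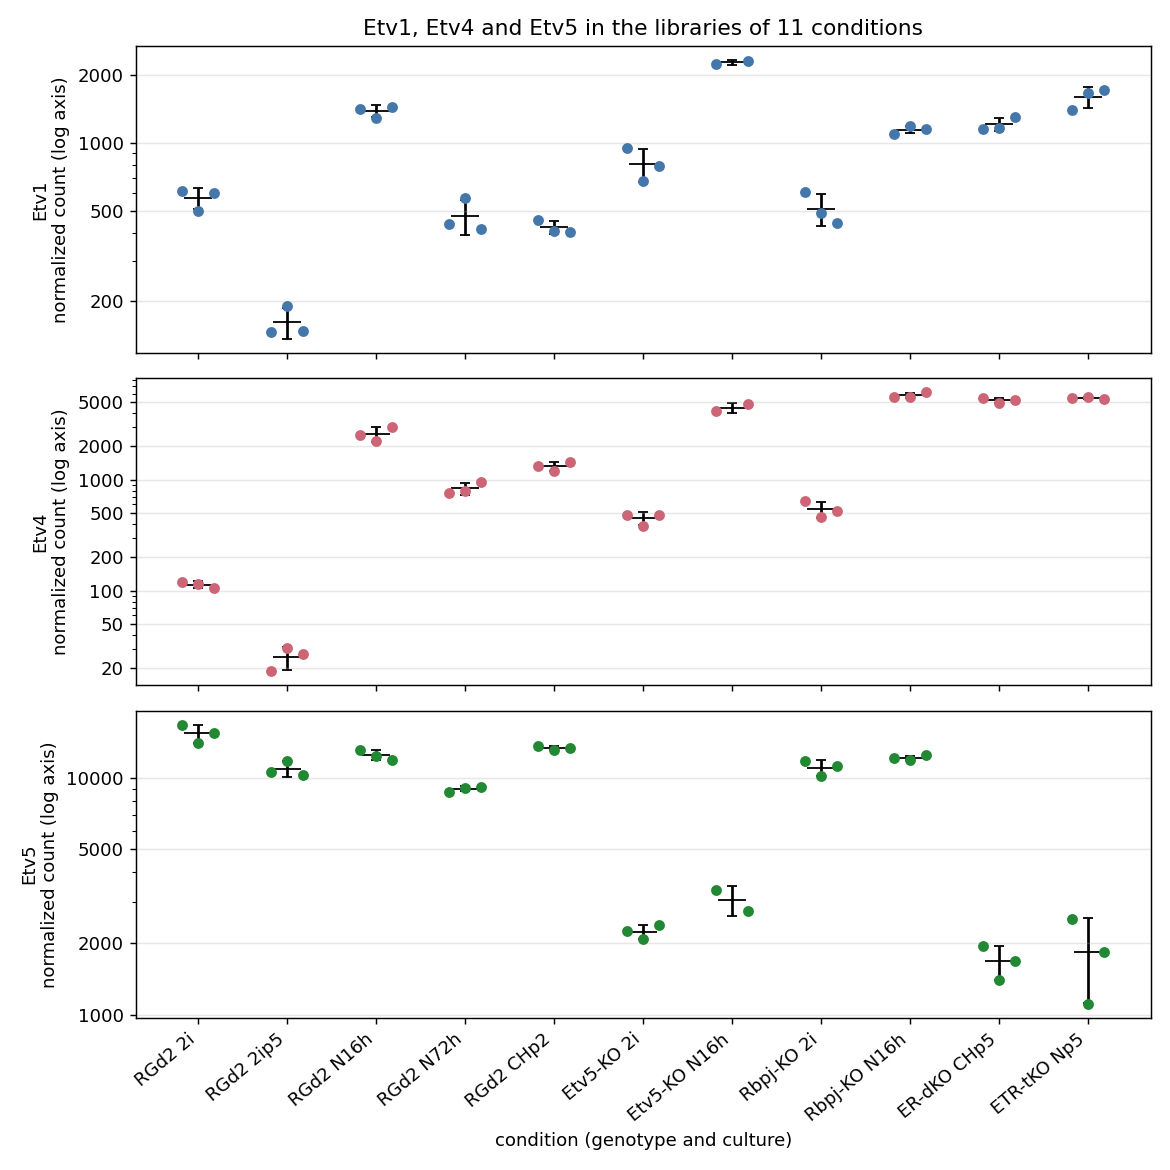
Normalized counts of *Etv1* (top), *Etv4* (middle) and *Etv5* (bottom) on log axes; each point is a library, the x axis gives the condition, and bars show mean and SD. *Etv4* spans the widest range, and *Etv5* separates into intact and deleted conditions.

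The comparison of RGd2 at N16h with 2i addresses the response to withdrawal of both inhibitors within 16 h. A gene is called where edgeR's quasi-likelihood test over all genes gave an adjusted p under 0.05 and its mean reached 1 FPKM in either group, the FPKM minimum. *Etv4* had normalized counts of 120.0, 116 and 105 in 2i and 2545, 2223 and 3017 at N16h. Every N16h library was far above every 2i library (log2 fold change 4.48, SE 0.15, adjusted p = 4.59e-25), a rise of 22.4-fold. *Etv1* had 614, 502 and 602 in 2i and 1413, 1282 and 1441 at N16h, again without overlap (log2 fold change 1.28, SE 0.13, adjusted p = 2.54e-10), or 2.42-fold. *Etv5* had 16791, 14116 and 15517 in 2i and 13157, 12468 and 11985 at N16h. The libraries did not overlap, yet the log2 fold change of -0.30 (SE 0.15, 95% interval of 1.96 SE on either side, -0.59 to -0.015) did not pass the test (adjusted p = 0.103 from edgeR), although it was called without the low-count filter and in an unblocked fit of only the 2i and N16h libraries, and it lay -0.076 from the median of all genes. Thus 2 of the 3 genes were called, both higher, where 46% of 11748 genes were called in either direction. In bulk RNA, more cells that express a gene and more RNA per cell cannot be told apart. Gene-level counts also cannot tell the full-length *Etv5* transcript from the shorter one that starts at an internal promoter.

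At N72h, *Etv4* and *Etv1* were below their N16h levels and above long-term 2i culture. The N16h cells came from CHIR99021 and LIF by way of 2i, and the labels do not name the starting culture of the N72h cells. Time after release and starting culture therefore cannot be told apart between N16h and N72h. *Etv4* was at 762, 793 and 956, below every N16h library (log2 fold change -1.63, SE 0.12, adjusted p = 8.57e-15) and above the 18.9, 30.2 and 26.7 of 2ip5 (log2 fold change 4.99, SE 0.18, adjusted p = 1.65e-24). In 2ip5, only 8, 23 and 26 raw counts stand behind these values. *Etv1* was at 437, 572 and 418, likewise below N16h (log2 fold change -1.55, SE 0.13, adjusted p = 5.27e-13) and above the 146, 191 and 148 of 2ip5 (log2 fold change 1.54, SE 0.15, adjusted p = 1.55e-11). *Etv5* was called lower than at N16h too, at 8772, 9093 and 9179.9 (log2 fold change -0.48, SE 0.15, adjusted p = 0.00619). Against the 10666, 11868 and 10345 of 2ip5 its log2 fold change was -0.28 (SE 0.15, adjusted p = 0.11), without a call, although the libraries did not overlap, and it was called lower with TMM (-0.42) and in a model of only these 6 libraries. All 3 genes were thus called lower at N72h than at N16h, where 60.9% of genes were called, and 2 higher than in 2ip5, where 57.1% were. Neural *Nes* differs between these cultures (above). Of 11 naive markers (described below), 0 were called higher at N72h and 11 lower, against 2ip5 and against N16h alike. Of 9 formative markers, 8 were called higher and 0 lower against 2ip5, and 6 higher and 2 lower against N16h. Of all genes, 4189 of 12247 were called higher and 2802 lower against 2ip5, and 3844 of 12280 and 3635 against N16h. The part of these differences in the result was not tested.

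RGd2 CHp2 differs from 2ip5 in the MEK inhibitor, which only 2ip5 contained, and in the number of passages. *Etv4* was at 1340.2, 1205 and 1448 in CHp2, 50.4-fold above 2ip5 (log2 fold change 5.65, SE 0.18, adjusted p = 1.15e-25). *Etv1* was at 455, 408 and 405, 2.6-fold above 2ip5 (log2 fold change 1.38, SE 0.15, adjusted p = 9.99e-10). *Etv5*, at 13685, 13108 and 13372, was above each 2ip5 library, but its log2 fold change of 0.29 (SE 0.15, adjusted p = 0.124) was not called. The count was 2 of 3 genes, with 42.2% of all genes called. The other 2i culture stood differently: all RGd2 2i libraries (614, 502 and 602) were above all CHp2 libraries in *Etv1*, while *Etv4* in RGd2 2i (120.0, 116 and 105) was below them. The streak marker *T* moves with CHp2 (above). Of 11 naive markers (described below), 0 were called higher in CHp2 than in 2ip5 and 11 lower (0 and 11 with TMM scaling). Of 9 formative markers, 9 were called higher and 0 lower (8 and 0 with TMM scaling). Of all genes, 3450 of 12054 were called higher and 1635 lower. The part of these differences in the result was not tested. Against N72h, cells in CHp2 had more *Etv4* (log2 fold change 0.66, SE 0.12, adjusted p = 3.14e-05) and more *Etv5* (log2 fold change 0.57, SE 0.15, adjusted p = 0.0026), while the log2 fold change of *Etv1* was -0.16 with an interval of -0.43 to 0.11. These are 2 of 3 genes, against 37.1% of all. Of the naive markers, 11 were called higher in CHp2 than at N72h and 0 lower, and of the formative markers 1 higher and 7 lower. Of all genes, 2413 of 12153 were called higher and 2097 lower. The part of these markers was not tested.

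The 2 kinds of 2i culture also differed. Cells that had come from CHIR99021 and LIF shortly before held 4.39 times the *Etv4* (log2 fold change -2.14, SE 0.21, adjusted p = 8.95e-10) and 3.50 times the *Etv1* (log2 fold change -1.81, SE 0.15, adjusted p = 2.00e-11) of cells kept in 2i for 5 passages (fold changes are of 2ip5 over 2i). *Etv5* was called lower in 2ip5 as well (log2 fold change -0.50, SE 0.15, adjusted p = 0.00743). The median gene was -0.37 in this comparison, so relative to it *Etv5* differed by -0.13, and its call was lost with TMM scaling (-0.18), with size factors from the genes (-0.19) and in a model of only these 6 libraries. All 3 genes were called here, as were 52.3% of all genes.

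**Figure D3:**
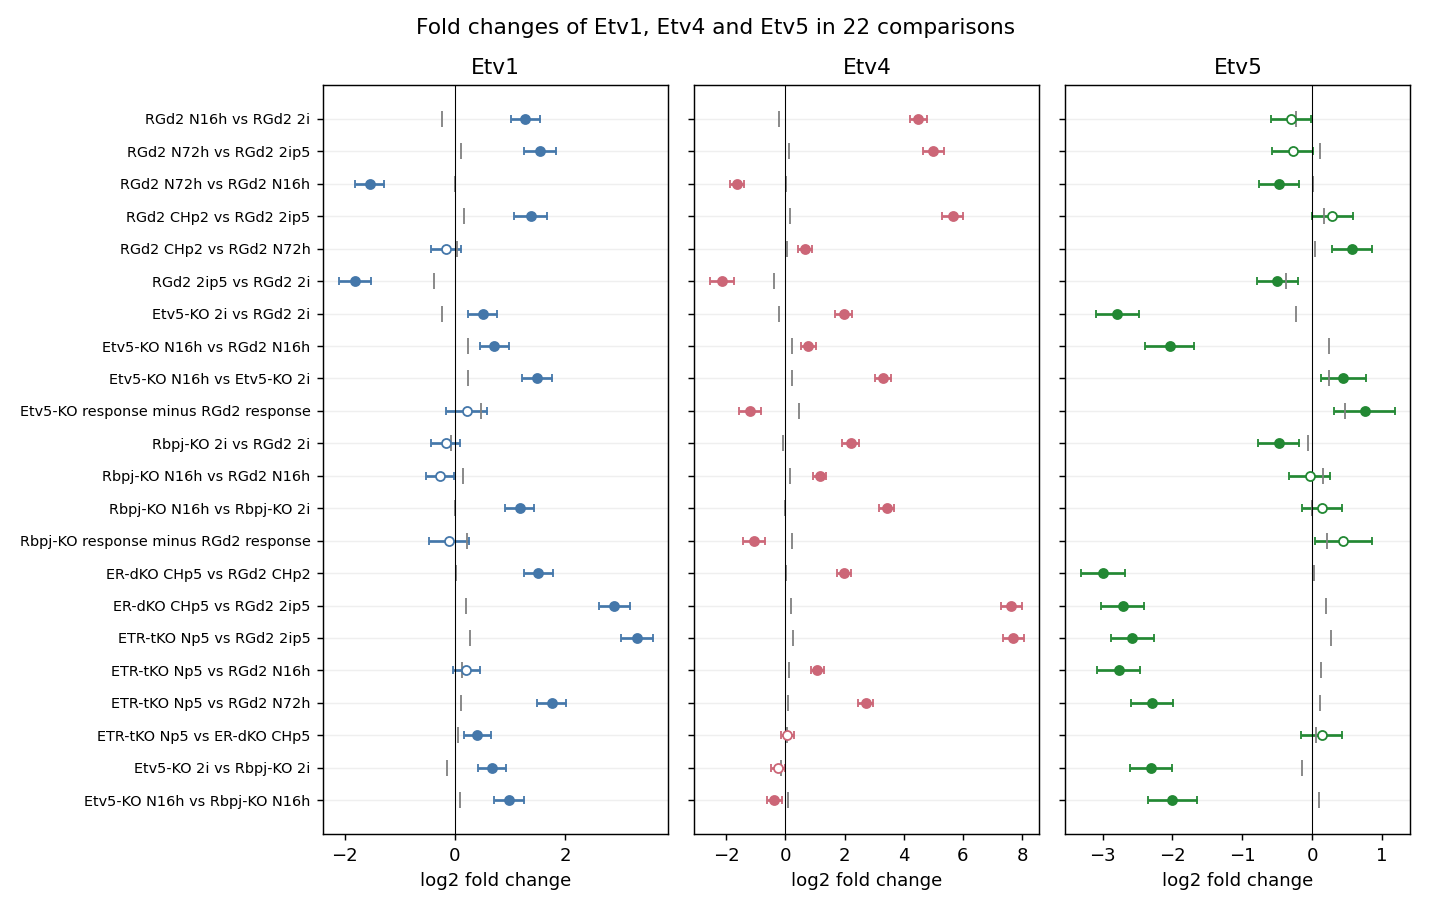
Log2 fold change (x axis) of *Etv1*, *Etv4* and *Etv5* in each of 22 comparisons (y axis), with 1.96 SE; filled points were called, open points were not, and grey ticks mark the median of all genes. *Etv4* points lie right of 0 in each knockout against RGd2, while *Etv5* points lie far left only where *Etv5* was deleted.

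Other genes of the pathway were taken from lists chosen with earlier results of these data known. Of 20 ERK target and feedback genes at N16h against 2i in RGd2, of which 17 passed the FPKM minimum, 10 were called higher and 0 lower (13 and 0 with TMM scaling), with a median log2 fold change of 1.32 against -0.23 for all genes (1014 of 11748 called higher and 4388 lower). The 3 called genes with the largest changes were *Spry4*, which encodes a feedback inhibitor of receptor tyrosine kinase signaling (normalized count 11.1 to 2134, log2 fold change 7.81), and *Dusp4* (3.82) and *Dusp6* (3.07), which encode phosphatases of MAP kinases. *Etv4* changed by less than *Spry4* and by more than *Dusp4* and *Dusp6*. In CHp2 against 2ip5, 15 were called higher and 1 lower (15 and 2 with TMM scaling), with a median log2 fold change of 2.21 against 0.17 for all genes (3450 of 12054 called higher and 1635 lower). Of 23 genes from FGF ligands and receptors to ERK itself, 20 of which passed the FPKM minimum at N16h against 2i, 3 were called higher and 3 lower (7 and 0 with TMM scaling), with a median log2 fold change of -0.11 against -0.23 for all genes. The called genes with the largest changes were the ligand genes *Fgf15* (3.94) and *Fgf5* (3.87) and the kinase gene *Braf* (1.07).

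Known regulators and partners of PEA3 proteins form a list of 12 genes: the capicua complex, the COP1 and DET1 ubiquitin ligase that degrades PEA3 proteins, the Tribbles adaptors of COP1, and coactivators. At N16h against 2i, 0 were called higher and 4 lower (3 and 2 with TMM scaling), with a median log2 fold change of -0.12 against -0.23 for all genes, and 11 had passed the FPKM minimum, so that the share called lower was near that of all genes (above). The called genes with the largest changes were *Cic* (3997 to 2582, log2 fold change -0.63, adjusted p = 1.86e-04 from edgeR), its partner gene *Atxn1l* (-0.53) and *Dda1* of the ligase complex (-0.37). At N72h against 2ip5, 6 were called higher and 0 lower (6 and 2 with TMM scaling), with a median log2 fold change of 0.25 against 0.11 for all genes (4189 of 12247 called higher and 2802 lower), led by *Trib1* (329 to 1481, log2 fold change 2.17) and *Trib2* (1.84).

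Of the 23 other ETS family genes, 12 passed the FPKM minimum at N16h against 2i, and 0 were called higher and 9 lower (1 and 7 with TMM scaling), with a median log2 fold change of -0.65 against -0.23 for all genes. Of all genes, 1014 of 11748 were called higher and 4388 lower. The largest changes in the list were those of *Spic* (-6.53), *Elf3* (-3.12) and *Elf4* (-1.85). So, with the spike-in scaling, *Etv4* and *Etv1* were called higher in a comparison in which no gene of this list was. Per length, none of these genes reached *Etv5* in RGd2 2i: the highest were *Elf3* with 40.5 FPKM, *Gabpa* with 32.4 and *Erf* with 24.6. At N16h, *Etv4* (34.4 ± 6.07 FPKM) was near *Gabpa* (36.4 FPKM) and *Erf* (30.9 FPKM).

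*Etv5* itself was targeted with a pair of guide RNAs against neighbouring coding exons, which are shown because they set what the counts can and cannot see in these lines. The targets, from the study's reagent list, are in exons 8 and 9 of 13 of its longest coding transcript, with the protospacer in lower case and the NGG motif that Cas9 needs in capitals. The former lies at chr16:22401804-22401823 on the minus strand and the latter at chr16:22399336-22399355 on the plus strand (GRCm38).
exon 8 guide: cgcagctccgccaccccttcAGG
exon 9 guide: gaaatacccgcctctcatgtAGG
Between the cuts lie 2454 bases, of which 162 are counted exon bases, 3.95% of the 4103 counted for *Etv5*. These 162 bases, with the 135 from exon 8 in lower case and the 27 from exon 9 in capitals, are:
exons between the cuts: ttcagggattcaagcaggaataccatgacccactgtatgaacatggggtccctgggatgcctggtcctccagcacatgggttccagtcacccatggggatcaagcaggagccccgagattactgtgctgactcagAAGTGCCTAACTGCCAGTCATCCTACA
They make up 54 codons with no remainder. The alleles of the lines were not read here. The other PEA3 genes are not close matches to the guides: beside an NGG, the exon 8 guide had at least 7 mismatches of 20 in *Etv1* and 7 in *Etv4*, and the exon 9 guide 9 and 10.

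*Etv5* counts in the *Etv5*-deleted lines were low but well above 0. In *Etv5*-KO they were 2246, 2092 and 2384 in 2i, against 16791, 14116 and 15517 in RGd2 (log2 fold change -2.79, SE 0.16, adjusted p = 3.82e-17). At N16h they were 3373 and 2734, against 13157, 12468 and 11985 (log2 fold change -2.04, SE 0.18, adjusted p = 1.41e-11). No knockout library came near an RGd2 library, and the fall was larger than the 3.95% of exon bases between the cuts. Reads per exon were not used here, so it was not tested where the remaining counts lie. In ER-dKO *Etv5* was at 1954, 1397 and 1684 and in ETR-tKO at 2547, 1112 and 1843.

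With *Etv5* deleted, both remaining PEA3 genes were higher. In 2i, *Etv4* was at 486, 387 and 484 in *Etv5*-KO, against 120.0, 116 and 105 in RGd2, so each knockout line was above each RGd2 library (log2 fold change 1.97, SE 0.14, adjusted p = 6.91e-14), or 3.91-fold. *Etv1* was at 944, 681 and 792, against 614, 502 and 602, also without overlap (log2 fold change 0.50, SE 0.13, adjusted p = 0.00381), or 1.42-fold. The mesoderm and streak markers summed to 3.50 to 3.73 FPKM in *Etv5*-KO and 8.05 to 9.76 in RGd2, and their part was not tested. In a model of only these 6 libraries, the call of *Etv1* was lost at the same fold change. With *Etv5*, all 3 genes were called, as were 34% of 11569 genes. The summed FPKM of the 3 genes was 29.7 ± 3.34 in *Etv5*-KO 2i, with the remaining *Etv5* counts included, and 138 ± 19.1 in RGd2 2i (SD, n = 3).

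At N16h, *Etv4* was at 4143 and 4778 in *Etv5*-KO, against 2545, 2223 and 3017 in RGd2 (log2 fold change 0.78, SE 0.13, adjusted p = 8.13e-06), or 1.72-fold. *Etv1* was at 2221 and 2306, against 1413, 1282 and 1441 (log2 fold change 0.72, SE 0.14, adjusted p = 1.12e-04), or 1.64-fold. Neither gene's groups overlapped. Relative to the median of all genes, 0.24, these changes were 0.54 and 0.48. All 3 genes were called, and 32.5% of all genes. The summed FPKM at N16h was 83.9 ± 3.94 (SD, n = 2) in *Etv5*-KO and 164 ± 5.71 (SD, n = 3) in RGd2.

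The same genes were measured in *Rbpj*-KO lines, in which the PEA3 genes were not targeted. The comparisons share the RGd2 libraries, so values are set side by side and the knockouts were then compared with each other. In 2i, *Etv4* was at 642, 464 and 525 in *Rbpj*-KO (log2 fold change 2.22, SE 0.15, adjusted p = 1.81e-14), or 4.64-fold above RGd2, where *Etv5*-KO was 3.91-fold above. At N16h it was at 5637, 5624 and 6147 (log2 fold change 1.16, SE 0.12, adjusted p = 4.56e-10), or 2.24-fold above RGd2, where *Etv5*-KO was 1.72-fold above. *Etv4* was thus higher than in RGd2 in every *Etv5*-KO and *Rbpj*-KO library, and the cause was not tested. In the clonal RGd2 line it was 105 in 2i, the lowest of the RGd2 libraries, and 3017 at N16h, the highest of them.

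*Etv1* did not follow this pattern. In *Rbpj*-KO it was at 606, 487 and 444 in 2i, overlapping RGd2 (log2 fold change -0.17, interval -0.43 to 0.10, adjusted p = 0.542). At N16h it was at 1097, 1183 and 1151, below each RGd2 library, without a call (-0.27, interval -0.52 to -0.02, adjusted p = 0.149) but called lower with TMM (-0.41) and with size factors from the genes (-0.42). *Etv5* was at 11861, 10187 and 11233 in *Rbpj*-KO 2i, lower than in RGd2 (log2 fold change -0.48, SE 0.15, adjusted p = 0.0284), a call that was lost with TMM (-0.46), in a model of these 6 libraries, and without RGd2 replicate 31 (-0.42), *Rbpj*-KO replicate 29 (-0.42) or *Rbpj*-KO replicate 30 (-0.49). At N16h it was at 12161, 11985 and 12474 and overlapped RGd2 (-0.038, interval -0.33 to 0.25, adjusted p = 0.904). In *Rbpj*-KO, 2 of 3 genes were called in 2i, where 11.4% of all genes were, and 1 of 3 at N16h, where 22.2% were. The summed level of the 4 neural markers was 12 to 14.2 FPKM in *Rbpj*-KO 2i and 1.68 to 3.48 in RGd2 2i, mostly *Nes*, and its part in these results was not tested.

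Set against each other in 2i, *Etv5*-KO and *Rbpj*-KO overlapped in *Etv4* (log2 fold change -0.25, interval -0.49 to -0.0079, adjusted p = 0.153 from edgeR). At N16h, *Etv4* was called lower in *Etv5*-KO (log2 fold change -0.38, SE 0.13, adjusted p = 0.0419), but the call was lost when any of the 5 libraries was left out (from -0.49 to -0.28). *Etv4* was thus not called higher in *Etv5*-KO than in *Rbpj*-KO in either condition. *Etv1*, in contrast, was higher in *Etv5*-KO than in *Rbpj*-KO in 2i (log2 fold change 0.67, SE 0.13, adjusted p = 1.63e-04) and at N16h (log2 fold change 0.98, SE 0.14, adjusted p = 1.30e-06), without overlap. *Etv5* was lower in both (-2.31 and -2.0). These are 2 of 3 genes called in 2i, against 26.3% of all, and 3 of 3 at N16h, against 17.9%.

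*Etv4* and *Etv1* were also upregulated after release from 2i in both knockouts. In *Etv5*-KO, *Etv4* rose 9.85-fold (log2 fold change 3.30, SE 0.13, adjusted p = 2.30e-22) and *Etv1* 2.81-fold (log2 fold change 1.49, SE 0.14, adjusted p = 1.63e-11). The remaining *Etv5* counts were also called higher (log2 fold change 0.45, SE 0.16, adjusted p = 0.032), a call that was lost with TMM (0.20), with size factors from the genes (0.24), and without *Etv5*-KO replicate 25 (0.45), 26 (0.40) or 17 (0.29). All 3 genes were called, as were 40.7% of all. In *Rbpj*-KO, *Etv4* rose 10.8-fold (log2 fold change 3.43, SE 0.13, adjusted p = 7.95e-23) and *Etv1* 2.25-fold (log2 fold change 1.17, SE 0.13, adjusted p = 3.57e-09), while *Etv5* had a log2 fold change of 0.14 (interval -0.15 to 0.43), so that 2 of 3 genes were called, against 27.9% of all.

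The size of the response was then compared between genotypes. The fold rise of *Etv4*, 4.48 on the log2 scale in RGd2, was smaller in both knockouts. The difference was -1.18 (SE 0.19, adjusted p = 1.48e-05) in *Etv5*-KO and -1.05 (SE 0.18, adjusted p = 3.49e-04) in *Rbpj*-KO, both from edgeR's test of the difference. In both knockouts *Etv4* started from a higher level in 2i and ended at a higher level at N16h. For *Etv1* the differences were 0.21 (interval -0.16 to 0.59) and -0.10 (interval -0.47 to 0.26), neither called, and the former was -0.24 with TMM. Without *Rbpj*-KO replicate 28 the latter was 0.022. For *Etv5* they were 0.75 in *Etv5*-KO (SE 0.22, adjusted p = 0.0107), which was lost with TMM (0.33) and without *Etv5*-KO N16h replicate 17 (0.59), and 0.44 in *Rbpj*-KO (interval 0.034 to 0.85, adjusted p = 0.299). Thus 2 of 3 genes were called for *Etv5*-KO, against 37.3% of all genes, and 1 of 3 for *Rbpj*-KO, against 4.03%.

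**Figure D4:**
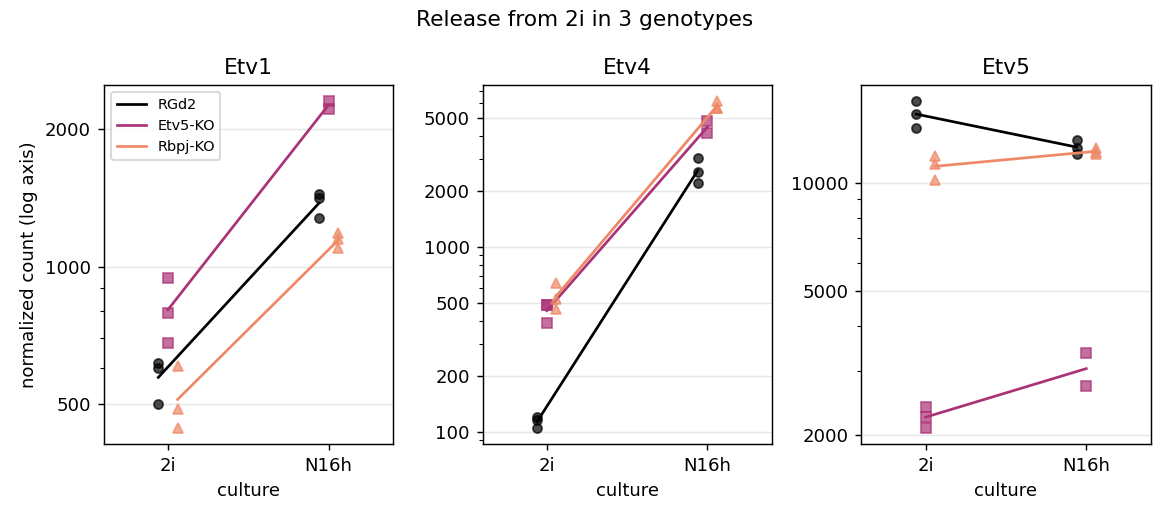
Normalized counts (log axes) of *Etv1*, *Etv4* and *Etv5* in 2i and at N16h; points are libraries of RGd2 (black circles), *Etv5*-KO (purple squares) and *Rbpj*-KO (orange triangles), and lines join the means. *Etv4* starts and ends higher in both knockouts, and *Etv1* in *Etv5*-KO.

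In ER-dKO, grown without the MEK inhibitor, *Etv4* and *Etv1* were higher than in RGd2 in the same inhibitor. *Etv4* was at 5495, 4963 and 5275, 3.94-fold above RGd2 CHp2 (log2 fold change 1.98, SE 0.12, adjusted p = 5.68e-17). *Etv1* was at 1147, 1167 and 1300.0, 2.85-fold above (log2 fold change 1.51, SE 0.14, adjusted p = 2.98e-12), and *Etv5* was lower (log2 fold change -3.0, SE 0.16, adjusted p = 1.01e-18). Without replicate 12, whose *Rbpj* was not low, the log2 fold changes were 1.98 for *Etv4*, 1.45 for *Etv1* and -3.0 for *Etv5*. All 3 genes were called, as were 49.7% of all. The groups also differ in passage (5 against 2), and the mesoderm and streak markers summed to 14.5 to 16.2 FPKM in ER-dKO and 69.8 to 73.5 in RGd2 CHp2. Of 11 naive markers (described below), 11 were called higher in ER-dKO and 0 lower, and of 9 formative markers 0 higher and 7 lower. Those counts held without replicate 12, and with TMM scaling 8 formative markers were lower. Of all genes, 3422 of 12083 were called higher and 2578 lower. The part of these differences in the result was not tested. Against RGd2 in 2ip5, which differs in genotype and medium, the log2 fold changes were 7.63 for *Etv4*, 2.89 for *Etv1* and -2.71 for *Etv5* (7.63, 2.83 and -2.71 without replicate 12), all called, with 42.4% of all genes.

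ETR-tKO cells in N2B27 held *Etv4* at 5488, 5586 and 5396 and *Etv1* at 1393, 1666 and 1718. Against 2ip5 the log2 fold changes were 7.70 (SE 0.18), 3.29 (SE 0.15) and, for *Etv5*, -2.57 (SE 0.16), all called, with 47.3% of all genes. N2B27 is also the medium of the released RGd2 cells. Against these, *Etv4* was higher than at N16h (log2 fold change 1.08, SE 0.12, adjusted p = 4.08e-10) and N72h (log2 fold change 2.71, SE 0.12, adjusted p = 2.79e-21). *Etv1* overlapped with N16h (0.21, interval -0.038 to 0.45) and was above N72h (log2 fold change 1.75, SE 0.13, adjusted p = 1.52e-14). *Etv5* was lower than in both (-2.77 and -2.29). The neural markers summed to 11.3 to 12 FPKM in ETR-tKO, 3.27 to 4.39 at N16h, 44.2 to 50.3 at N72h and 3.75 to 4.33 in 2ip5. Of 11 naive markers (described below), 11 were called higher than at N72h, and of 9 formative markers 9 lower. Against N16h, 9 naive markers were higher and 1 lower, and 9 formative markers lower. Of all genes, 4381 of 12338 were called higher and 2909 lower against N72h, and 3694 of 11918 and 1726 against N16h. The part of these markers in the results was not tested. Of the PEA3 genes, 2 of 3 were called against N16h, with 45.5% of all genes called, and 3 of 3 against N72h, with 59.1%. After 5 passages in N2B27, *Etv4* thus stood above and *Etv1* overlapping with the level of RGd2 cells 16 h after release.

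ETR-tKO and ER-dKO were also compared. *Etv4* and *Etv5* overlapped and were not called, with log2 fold changes of 0.066 (interval -0.16 to 0.29) and 0.13 (interval -0.16 to 0.43). *Etv5* depended on single lines: it was -0.18 without ETR-tKO replicate 13 and 0.39, with a call, without ETR-tKO replicate 14. *Etv1* was called higher in ETR-tKO (log2 fold change 0.40, SE 0.13, adjusted p = 0.0164), and the call was lost without ER-dKO replicate 10 (0.37) or 11 (0.38), or ETR-tKO replicate 14 (0.37) or 15 (0.34). Without ER-dKO replicate 12 the values were 0.07 for *Etv4*, 0.14 for *Etv5* and 0.46 for *Etv1*. This is 1 of 3 genes, against 24.5% of all genes.

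ERK target and feedback genes did not all follow *Etv4* in the mutants. In *Etv5*-KO 2i, where *Etv4* and *Etv1* were higher, 1 was called higher and 10 lower (2 and 9 with TMM scaling), with a median log2 fold change of -0.36 against -0.23 for all genes (710 of 11569 called higher and 3227 lower), and 13 of 20 had passed the FPKM minimum. *Myc* (-2.0), the growth regulator, and *Dusp6* (-1.76) fell, and *Epha4*, an ephrin receptor gene, was the exception (1.48). In *Rbpj*-KO 2i, 3 were called higher and 4 lower (4 and 2 with TMM scaling), with a median log2 fold change of 0.20 against -0.064 for all genes (605 of 11546 called higher and 707 lower). There, *Dusp6* was higher (1.08) and *Dusp4* lower (-1.36). In *Etv5*-KO N16h, 6 were called higher and 0 lower (6 and 1 with TMM scaling), with a median log2 fold change of 0.29 against 0.24 for all genes (3437 of 11735 called higher and 380 lower). In *Rbpj*-KO N16h, 6 were called higher and 2 lower (6 and 4 with TMM scaling), with a median log2 fold change of 0.15 against 0.15 for all genes (2205 of 11717 called higher and 400 lower). In ER-dKO against CHp2, 4 were called higher and 12 lower (4 and 13 with TMM scaling), with a median log2 fold change of -1.02 against 0.023 for all genes (3422 of 12083 called higher and 2578 lower), or 3 higher and 11 lower without replicate 12. *Junb* (-3.60), *Epha4* (2.18) and *Dusp5* (-2.18) changed most, with -3.87, 2.17 and -2.06 without replicate 12. In ETR-tKO against 2ip5, 14 were called higher and 2 lower (13 and 2 with TMM scaling), with a median log2 fold change of 1.97 against 0.27 for all genes (4459 of 11814 called higher and 1126 lower).

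The feedback gene *Spry4*, chosen for a closer look after its values were seen, was above RGd2 in both single knockouts. Its normalized counts were 8.06, 9.17 and 16.2 in RGd2 2i, 52.9, 27.0 and 39.1 in *Etv5*-KO 2i and 96.8, 76.1 and 78.2 in *Rbpj*-KO 2i, with no overlap between RGd2 and either knockout. At N16h they were 2144, 1955 and 2301 in RGd2, 3098 and 3385 in *Etv5*-KO and 3254, 3096 and 3767 in *Rbpj*-KO, again with both knockouts above RGd2. In ER-dKO they were 2385, 2148 and 2508 and in ETR-tKO 2601, 2594 and 2515. *Dusp6*, in contrast, was lower than RGd2 in *Etv5*-KO 2i and higher in *Rbpj*-KO 2i.

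Among the known regulators of PEA3 factors, *Trib2* had the largest change in *Etv5*-KO 2i. Its normalized counts were 298, 247 and 307 in RGd2 2i and 57.8, 50.7 and 46.0 in *Etv5*-KO 2i (log2 fold change -2.45, SE 0.17, adjusted p = 1.97e-14 from edgeR). It was also lower in *Etv5*-KO N16h (-0.76), in ER-dKO against CHp2 (-2.75, or -2.89 without replicate 12) and in *Rbpj*-KO 2i (-1.18). It was called higher in *Rbpj*-KO N16h (0.42) and in ETR-tKO against 2ip5 (0.48), and lower in ETR-tKO against N16h (-0.94). Of the whole list of 12, 11 passed the FPKM minimum. In *Etv5*-KO 2i, 0 were called higher and 6 lower (1 and 5 with TMM scaling), where 710 of 11569 genes were called higher and 3227 lower. The list's median log2 fold change was -0.34 against -0.23 for all genes. At N16h, where *Etv5*-KO is set against RGd2 again, 4 were called higher and 2 lower (1 and 5 with TMM scaling). Of all genes, 3437 of 11735 were called higher there and 380 lower, and the median log2 fold change was 0.14 in the list and 0.24 over all. Of the other ETS genes, 12 passed the FPKM minimum in *Etv5*-KO 2i, and 1 was called higher and 2 lower (5 and 2 with TMM scaling). Their median log2 fold change was -0.032 against -0.23 for all genes. Those called were *Elf3* (0.41), *Etv6* (-0.62) and *Elk4* (-0.53). At N16h, 11 passed, and 8 were called higher and 0 lower (4 and 0 with TMM scaling), beside the same 3437 and 380 of all genes. Their median log2 fold change was 0.44 against 0.24 for all genes, led by *Elf3* (1.13), *Ets2* (1.07) and *Elf4* (0.97).

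Naive markers are genes of the ground state, and formative markers those switched on as cells leave it. In RGd2 at N16h against 2i, of 11 naive markers 1 was called higher and 9 lower (1 and 8 with TMM scaling), with a median log2 fold change of -1.44 against -0.23 for all genes. Of all genes, 1014 of 11748 were called higher and 4388 lower. Of 9 formative markers, 8 were called higher and 0 lower (8 and 0 with TMM scaling), with a median log2 fold change of 1.63 against -0.23 for all genes. In *Etv5*-KO N16h against RGd2 N16h, of the naive markers 11 were called higher and 0 lower (11 and 0 with TMM scaling), with a median log2 fold change of 1.18 against 0.24 for all genes, led by *Tbx3* (2.66), *Prdm14* (1.80) and *Nanog* (1.79). Of all genes, 3437 of 11735 were called higher there and 380 lower. Of the formative markers, 0 were called higher and 7 lower (0 and 7 with TMM scaling), with a median log2 fold change of -0.65 against 0.24 for all genes, led by *Lef1* (-2.32), *Pou3f1* (-1.60) and *Fgf5* (-1.08). In *Rbpj*-KO N16h, of the naive markers 8 were called higher and 0 lower (7 and 0 with TMM scaling), with a median log2 fold change of 0.60 against 0.15 for all genes, and of the formative markers 0 were called higher and 6 lower (0 and 8 with TMM scaling), with a median log2 fold change of -0.74 against 0.15 for all genes. Of all genes, 2205 of 11717 were called higher there and 400 lower. *Etv4* was higher than in RGd2 N16h in the libraries of both knockouts at N16h.

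Over the 15 RGd2 libraries, the genes whose log2 normalized counts (with 1 added) followed each factor most closely were named, out of 12914 others, by Pearson's r. The libraries come from 5 conditions and share their scaling, so r is a description. For *Etv4* they were *Meioc* (0.98), *Spry4* (0.98), *Timm21* (0.97), *Braf* (0.97) and *Aldh2* (0.97). *Spry4* and *Braf* belong to the ERK lists above, and *Meioc* is known from meiosis. For *Etv1* they were *Rarg* (0.97), *Cep76* (0.96), *Basp1* (0.95), *Crocc2* (0.94) and *Ncoa7* (0.94), of which *Rarg* encodes a retinoic acid receptor. For *Etv5* they included *Ncoa1* (0.96), *Tufm* (0.95), *Srp9* (0.95) and *Tbc1d2b* (0.95), none of them in the lists above. Between the factors, r was 0.78 for *Etv1* and *Etv4*, 0.30 for *Etv1* and *Etv5* and -0.033 for *Etv4* and *Etv5*.

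The promoter windows that RefSeq gives for *Etv1* and *Etv5* span 300 bases around the start site (GRCm38.p6, 2 windows each). They were searched on both strands for TGAATGAA and TGAATGGA, which are capicua octamers, and for the ETS octamer CCGGAAGT. None of the 4 windows held any of them. Of all 32851 windows of the same length, 1.30%, 1.21% and 3.89% did. A missing match says only that these letters are not in these windows. Other forms of these octamers were not searched. The *Etv5* window at chr16:22438319-22438618 holds TGAATGGG, which differs from TGAATGGA in the last base. *Etv4* had no entry.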

How the data were processed

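Total RNA was depleted of ribosomal RNA and sequenced strand-specifically as paired ends, in 32 libraries of 11 conditions. Per the study's methods and processing notes, the authors used Trim Galore for trimming, TopHat2 for alignment to mm10 (GRCm38) plus the ERCC sequences, and featureCounts with Gencode M14 for counting. Versions were not given in the sources used here. The values deposited by the authors are raw counts per gene, with merged exon lengths, for 51826 genes and 92 spike-ins. IDs without a symbol (193) took 0.0259% of counts. The labels give 3 RGd2 N16h and 2 *Etv5*-KO N16h libraries, whereas the study's methods give RGd2 N16h as the condition with a lost library, and the labels name polyA RNA where the protocol describes ribosomal depletion. Samples were grouped by the labels.

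Normalized counts are counts divided by median-of-ratios size factors from those spike-ins (52) that had counts in all libraries. FPKM and log2 fold changes were computed from the deposited counts. Tests used edgeR 4.0.16 (R 4.3.3) on all 32 libraries with a coefficient per condition, filterByExpr (18892 genes fitted), quasi-likelihood, two-sided, and Benjamini-Hochberg adjustment over all genes fitted. Genes were called at adjusted p below 0.05 if their mean reached 1 FPKM in either group (for a difference of responses, in any of its 4 groups). Percentages of genes called are over the genes that passed that FPKM minimum. The script was tested on simulated data. The members and gene lists were chosen with earlier results of these data known. Of each list, the 3 called genes with the largest change, or some of them, are named, and for each factor the 5 genes with the highest r, of which 1 for *Etv5* is not reported here. Alternatives were DESeq2 1.42.0, other scalings and filters, a fit of only the libraries compared, a clonal line block and leaving out each library. The same lines were sequenced in 2i and at N16h, so lines pair these samples. Deviations from condition means correlated at 0.0724 to 0.177 between libraries of the same line in RGd2, 0.00675 to 0.0159 in *Etv5*-KO and 0.0318 to 0.109 in *Rbpj*-KO. Replicates differed by more than sampling noise (chi-square per gene 3.39 to 44.3), so none was merged.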

Additional observations from a re-analysis of the deposited data

Results flagged for a closer look

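Differences of response between genotypes passed the test in 3 cases. The log2 change of *Etv4* from 2i to N16h minus that in RGd2 was -1.18 (SE 0.19) in *Etv5*-KO and -1.05 (SE 0.18) in *Rbpj*-KO. The fold rise was thus smaller in both, but not the gain in normalized counts. Mean counts went from 114 to 2595 in RGd2, from 452 to 4460 in *Etv5*-KO and from 544 to 5803 in *Rbpj*-KO. *Etv4* in these knockouts was 1.97 and 2.22 above RGd2 in 2i, and 0.78 and 1.16 above it at N16h. The change of the remaining *Etv5* counts in *Etv5*-KO was 0.75 (SE 0.22) above that in RGd2, where the median of all genes was 0.47. Conditions hold 2 or 3 libraries, so single libraries were not tested as outliers.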

How the results depend on the processing

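All 66 results (3 genes in 22 comparisons) were recomputed under each scaling, filter and tool, and the 15 of the 2i and N16h conditions also with a line block. Direction and side of the threshold were kept by all 66 with DESeq2 and without the FPKM minimum. With TMM, 59 kept both. Calls were lost for *Etv5* in 2ip5 against 2i (-0.18), *Etv5*-KO N16h against 2i (0.20), the *Etv5*-KO difference of responses (0.33) and *Rbpj*-KO against RGd2 in 2i (-0.46). Calls were gained for *Etv5* in N72h against 2ip5 (-0.42) and *Etv1* in *Rbpj*-KO against RGd2 at N16h (-0.41). The sign of *Etv1* in the *Etv5*-KO difference of responses turned (-0.24). With size factors from the median of ratios over genes, the values of these were -0.19, 0.24 and 0.34 (lost), -0.39 and -0.42 (gained) and -0.24 (turned). With the total spike-in count, *Etv4* in *Etv5*-KO against *Rbpj*-KO at N16h was lost (-0.35).

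Without the low-count filter, *Etv5* was called in N16h against 2i (-0.30), N72h against 2ip5 (-0.28) and CHp2 against 2ip5 (0.29), and *Etv4* in *Etv5*-KO against *Rbpj*-KO at N16h was lost (-0.38). With only the libraries compared, *Etv5* was called in N72h (-0.28) and CHp2 (0.29) against 2ip5 and *Etv1* in *Rbpj*-KO against RGd2 at N16h (-0.27), and lost were *Etv5* in 2ip5 against 2i (-0.50), *Etv1* in *Etv5*-KO against RGd2 in 2i (0.50) and *Etv5* in *Rbpj*-KO against RGd2 in 2i (-0.48). The cause was not tested.

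The clonal line as replicate block, in the 15 results of the paired 2i and N16h conditions, changed no call (-0.30 for *Etv5* in N16h against 2i, adjusted p = 0.0737 from edgeR). The same libraries with no replicate block, a fit added after seeing the data, called that result (-0.30, adjusted p = 0.0379).

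Of 420 values with 1 library left out, 401 kept both. The others were *Etv5* in *Rbpj*-KO against RGd2 in 2i (-0.54 to -0.42), *Etv5*-KO N16h against 2i (0.29 to 0.59), the *Etv5*-KO difference of responses (0.59 to 0.89) and ETR-tKO against ER-dKO (-0.18 to 0.39), *Etv1* in ETR-tKO against ER-dKO (0.34 to 0.49) and the *Rbpj*-KO difference of responses (-0.20 to 0.022), and *Etv4* in *Etv5*-KO against *Rbpj*-KO at N16h (-0.49 to -0.28). Without an *Etv5*-KO N16h library, the remaining one is assumed to vary like the other groups. Depth limits *Etv4* in 2ip5, where raw counts were 8, 23 and 26, and in RGd2 2i replicate 33, where the raw count was 26.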
